A study of Mus musculus with 12 samples.

Results

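The mitosis genes described here were 43 genes named by symbol for their part in cell division, 43 of 21088 gene IDs listed in at least 1 of 3 RNA-seq tables. They were chosen by name and not picked by a measured value, but with earlier results of these data known. All 43 had a row in each of the 3 tables. Their rows were found by gene symbol, or by NCBI Gene ID in the table that gave no symbols. They were sorted into 9 role groups, which were mitotic entry (5 genes), spindle kinases (3), the chromosomal passenger complex (4), the spindle checkpoint (5), anaphase onset (4), the centromere and kinetochore (7), spindle motors and microtubules (4), the midzone and cytokinesis (5), and condensin and topoisomerase (6).

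The study asked how the histone deacetylase HDAC3 acts in the development of plasmacytoid dendritic cells (pDCs), the dendritic cells that specialise in type I interferon production. RNA was sequenced from HDAC3-deficient and control lymphoid-primed multipotent progenitors (LMPPs), common dendritic cell progenitors that lack the receptor CD115 (CD115-CDPs) and bone marrow (BM) pDCs, sorted by flow cytometry, with 2 libraries per genotype and cell type and 12 libraries in all. HDAC3-deficient cells came from *Hdac3* fl/fl CreERT2 mice and control cells from *Hdac3* fl/fl mice without Cre, both on the C57BL/6 background, and mice of both genotypes received tamoxifen for 5 days with a further 7 days before sorting. The ages of the mice were not stated in the labels or methods. CreERT2 was expressed from the *Rosa26* locus, so that deletion was not limited to the sorted cell types, and exon 3 of *Hdac3* was the floxed exon. Neither the labels nor the study's methods state that the 2 libraries of a group came from separate mice, so p values measure the spread between these libraries, which may be technical.

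Mitosis separates replicated chromosomes. CDK1 bound to B-type cyclins drives entry, condensin and topoisomerase II shape the chromosomes, and kinetochores built on CENP-A nucleosomes attach them to spindle microtubules. The spindle checkpoint holds back the anaphase-promoting complex (APC/C) until attachment is complete, after which CDC20 directs the destruction of securin and cyclin B, separase opens cohesin, and the central spindle guides cytokinesis. Transcripts of many of these genes are low in resting cells and accumulate toward G2 and M phase. In bulk libraries such as these, fewer dividing cells and less of each transcript per dividing cell cannot be told apart.

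*Hdac3* itself was read first as a check of the labels. It measured 15.6 and 15.8 FPKM in HDAC3-deficient BM pDCs, against 38.9 and 37.8 FPKM in control BM pDCs, where FPKM are fragment counts scaled by transcript length and library size. It measured 16.9 and 9.87 FPKM in HDAC3-deficient LMPPs, against 56.5 and 66.3 FPKM in control LMPPs, and 12.1 and 0.93 FPKM in HDAC3-deficient CD115-CDPs, against 58.2 and 39.6 FPKM in control CD115-CDPs. *Hdac3* was lower in both HDAC3-deficient libraries of each cell type. HDAC3-deficient CD115-CDP library 2 stood apart from the rest, with 11288 rows above 0 FPKM and a correlation of 0.87 with the other HDAC3-deficient CD115-CDP library across 10832 genes, against 0.98 between the control CD115-CDP libraries. The expected counts of the BM pDC libraries summed to between 18117748 and 18462220, while the tables of both progenitors gave FPKM alone and their depth is unknown. Markers of the sorted cell types were detected, the 9 pDC markers summing to 5281 and 5024 FPKM in HDAC3-deficient BM pDCs and to 9530 and 9778 FPKM in control BM pDCs, of which 0 rose and 5 fell.

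The first comparison asked whether mitosis genes differed between HDAC3-deficient and control BM pDCs. They were higher in HDAC3-deficient BM pDCs as a group, with 42 of 43 rising and 1, *Pttg1*, falling (edgeR quasi-likelihood test, Benjamini-Hochberg adjusted p under 0.05 over 12716 genes). Of all genes tested, 21.6% rose and 22.5% fell. The median log2 change of the 43 genes was 1.46, against −0.01 over all genes tested. In FPKM, both HDAC3-deficient libraries lay above both controls for 42 of the 43 genes, against 27.2% of all genes tested, and below both controls for 1, against 48.9%. The 43 genes together held 0.568% and 0.562% of the expected counts in HDAC3-deficient BM pDCs, against 0.217% and 0.21% in control BM pDCs.

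**Figure D1:**
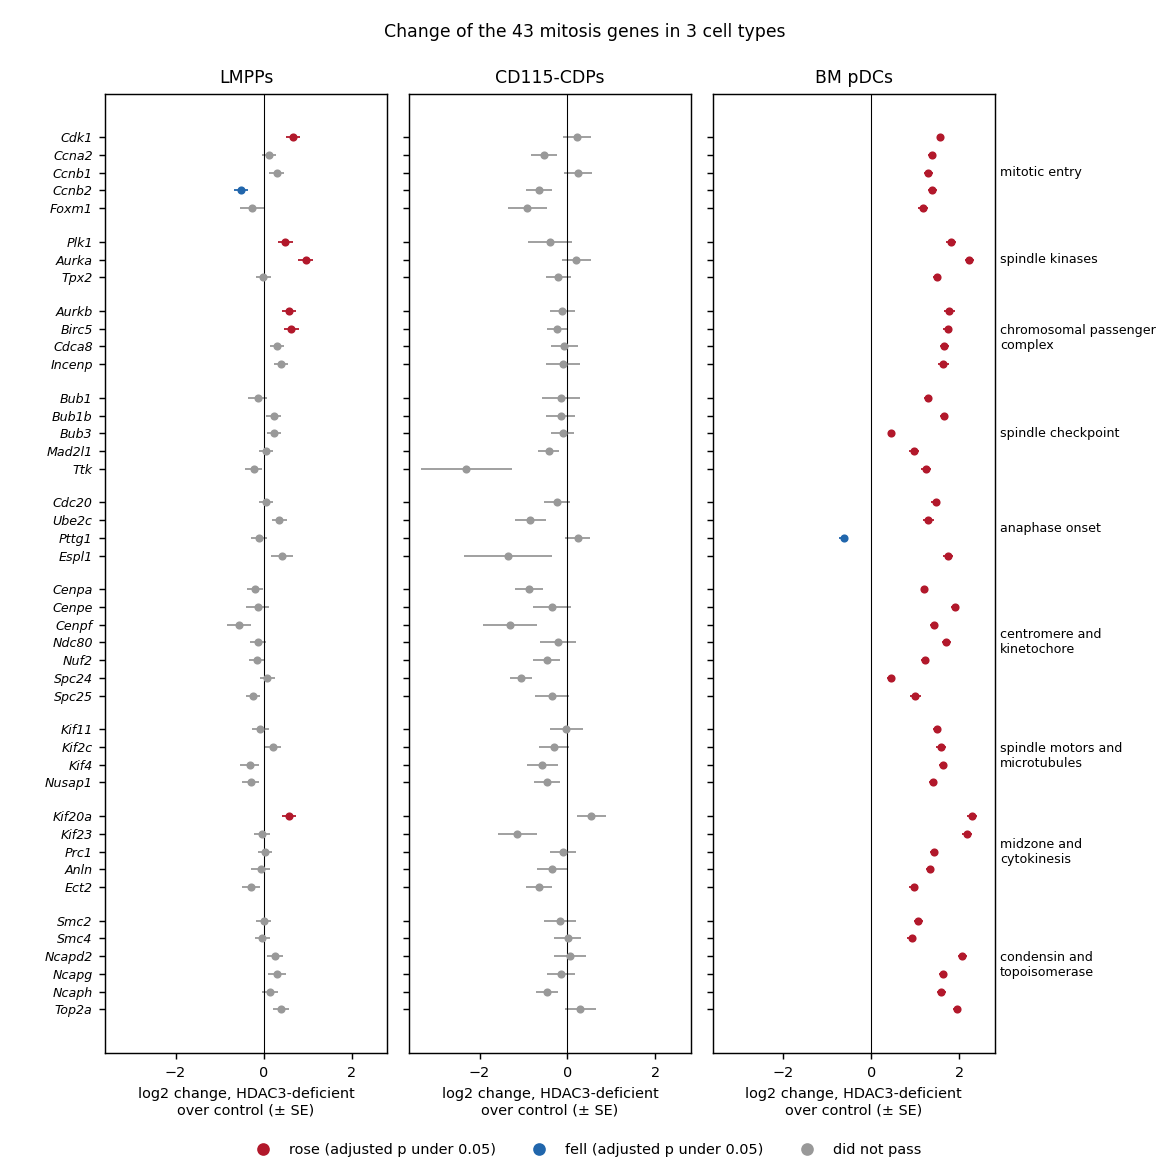
Log2 change of each of the 43 mitosis genes (rows, by role group) in HDAC3-deficient over control LMPPs, CD115-CDPs and BM pDCs (panels), with bars for ± SE and colours for calls at an adjusted p under 0.05. In BM pDCs 42 genes rose and *Pttg1* fell, in LMPPs 6 rose and 1 fell at the scale of the deposited FPKM (10 and 0 after median ratio scaling), and in CD115-CDPs 0 passed.

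Mitotic entry genes rose in HDAC3-deficient BM pDCs, 5 of 5, with a median log2 change of 1.37. *Ccnb2*, which encodes cyclin B2, a partner of CDK1, had the highest mean level of the group over the 12 libraries and measured 58.4 and 64.7 FPKM in HDAC3-deficient BM pDCs, against 26.1 and 25.6 FPKM in control BM pDCs. Its libraries did not overlap between genotypes, and its log2 change was 1.39 (SE 0.10; edgeR, Benjamini-Hochberg adjusted p = 9.2e-05). *Cdk1*, the kinase that drives entry into mitosis, measured 23.6 and 23.4 FPKM in HDAC3-deficient BM pDCs, against 8.68 and 8.68 FPKM in control BM pDCs, a log2 change of 1.57 (SE 0.09). Both genotypes were close to even between their libraries. *Foxm1*, a transcription factor of G2 and M phase genes, had the smallest change of the group, with 49.9 and 51.9 FPKM in HDAC3-deficient BM pDCs, 27.1 and 22.6 FPKM in control BM pDCs and a log2 change of 1.17 (SE 0.11).

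Spindle kinase genes rose, 3 of 3, with a median log2 change of 1.81. *Aurka*, encoding Aurora A, the kinase of centrosomes and spindle poles, measured 46.7 and 48.5 FPKM in HDAC3-deficient BM pDCs, against 11.6 and 10.8 FPKM in control BM pDCs. It was high in both HDAC3-deficient libraries, and its change of 2.23 on the log2 scale (SE 0.10), a fold of 4.68, had the smallest p of the 43 genes (edgeR, Benjamini-Hochberg adjusted p = 3.29e-05). *Plk1*, encoding polo-like kinase 1, changed by 1.81 (SE 0.11), and *Tpx2*, whose product activates Aurora A on the spindle, by 1.48 (SE 0.09).

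Genes of the chromosomal passenger complex, which corrects faulty attachments between kinetochores and microtubules, rose together within a narrow range, 4 of 4, from 1.64 for *Incenp*, its scaffold, to 1.78 for *Aurkb*, its kinase Aurora B. *Birc5*, encoding the subunit survivin, was the most abundant of the 43 genes on average over the 12 libraries, at 114 and 122 FPKM in HDAC3-deficient BM pDCs and 38.2 and 35.8 FPKM in control BM pDCs. *Aurkb* measured 49.5 and 54.8 FPKM in HDAC3-deficient BM pDCs, against 18.4 and 15.3 FPKM in control BM pDCs. For both genes the HDAC3-deficient libraries were well apart from the controls, and *Birc5* changed by 1.73 on the log2 scale (SE 0.10). *Cdca8*, encoding borealin, changed by 1.66 (SE 0.10).

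Spindle checkpoint genes rose, 5 of 5, but unevenly. *Bub1b*, encoding the checkpoint protein BUBR1, changed by 1.65 on the log2 scale (SE 0.09), *Bub1*, a kinase of the kinetochore, by 1.29 (SE 0.09) and *Mad2l1*, encoding MAD2, which binds CDC20, by 0.97 (SE 0.11). *Ttk*, encoding the checkpoint kinase MPS1, had the lowest level of the group, at 8.57 and 8.53 FPKM in HDAC3-deficient BM pDCs, against 3.64 and 4.25 FPKM in control BM pDCs, and changed by 1.25 (SE 0.12). *Bub3*, whose product recruits BUB1 and BUBR1 to kinetochores, was the most abundant of the group and measured 49.7 and 50.1 FPKM in HDAC3-deficient BM pDCs, against 39.5 and 40.5 FPKM in control BM pDCs. The genotypes did not overlap for *Bub3*, but its change of 0.46 (SE 0.08; edgeR, Benjamini-Hochberg adjusted p = 0.0045) was small beside those of *Bub1* and *Bub1b*. Without control library 1 or control library 2 its change stayed at 0.44 and 0.47 on the log2 scale, with edgeR adjusted p values of 0.0753 and 0.0641. In those fits the lone control library was taken to vary like the HDAC3-deficient ones, and 1531 and 1440 of all genes rose, against 2753 with both controls.

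Anaphase onset genes split, with 3 of 4 rising and 1 falling. *Ube2c*, the ubiquitin-conjugating enzyme of the APC/C, measured 137 and 165 FPKM in HDAC3-deficient BM pDCs, against 68.7 and 66.6 FPKM in control BM pDCs, a log2 change of 1.30 (SE 0.12). *Cdc20*, the APC/C activator, changed by 1.46 (SE 0.09) and *Espl1*, encoding separase, by 1.74 (SE 0.11). *Pttg1*, encoding securin, the inhibitor of separase, went the other way and measured 16.2 and 14.9 FPKM in HDAC3-deficient BM pDCs, against 25.6 and 26.9 FPKM in control BM pDCs. *Pttg1* was lower in each HDAC3-deficient library than in either control and fell by 0.63 on the log2 scale (SE 0.11; edgeR, Benjamini-Hochberg adjusted p = 0.00336). *Espl1* and *Pttg1*, a protease and its inhibitor, thus changed in opposite directions in the same libraries. *Pttg1* was singled out after its values were seen.

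Centromere and kinetochore genes rose, 7 of 7. *Cenpe*, encoding a kinetochore motor, measured 16.3 and 15.8 FPKM in HDAC3-deficient BM pDCs, against 4.68 and 4.76 FPKM in control BM pDCs, and had the largest change of the group at 1.90 on the log2 scale (SE 0.08). *Cenpa*, the histone variant that marks centromeres, measured 73.7 and 73.8 FPKM in HDAC3-deficient BM pDCs, against 35.5 and 34.5 FPKM in control BM pDCs, and changed by 1.20 (SE 0.08). Both genes were even within each genotype. The 4 subunits of the NDC80 complex, which binds microtubules, changed by different amounts, with *Ndc80* at 1.71 (SE 0.09), *Nuf2* at 1.22 (SE 0.09) and *Spc24* at 0.44 (SE 0.09). The fourth, *Spc25*, rose as well and measured 18.4 and 19.6 FPKM in HDAC3-deficient BM pDCs, against 9.90 and 11.1 FPKM in control BM pDCs. *Spc24* measured 24.3 and 23.9 FPKM in HDAC3-deficient BM pDCs, against 19.0 and 19.6 FPKM in control BM pDCs. Its genotypes did not overlap (edgeR, Benjamini-Hochberg adjusted p = 0.00809). Without control library 1 or control library 2 its change stayed at 0.40 and 0.46 on the log2 scale, but did not pass with a lone control library, at edgeR adjusted p values of 0.0975 and 0.0701.

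Spindle motor and microtubule genes rose, 4 of 4, between 1.39 for *Nusap1*, which stabilises spindle microtubules, and 1.63 for *Kif4*, a chromosome-bound motor. *Kif11*, encoding the motor Eg5, which pushes spindle poles apart, measured 52.3 and 47.4 FPKM in HDAC3-deficient BM pDCs, against 19.9 and 18.8 FPKM in control BM pDCs. The libraries of the genotypes were far apart, and its log2 change was 1.50 (SE 0.09).

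Midzone and cytokinesis genes rose, 5 of 5, and included the largest change of the 43 genes. *Kif20a*, a motor of the central spindle that carries the passenger complex, measured 34.1 and 39.4 FPKM in HDAC3-deficient BM pDCs, against 8.15 and 8.32 FPKM in control BM pDCs, a log2 change of 2.29 (SE 0.12) and a fold of 4.90. *Kif23*, a motor subunit of the centralspindlin complex, measured 89.7 and 90.6 FPKM in HDAC3-deficient BM pDCs, against 23.5 and 19.9 FPKM in control BM pDCs, a log2 change of 2.18 (SE 0.11). Both were high in both HDAC3-deficient libraries (edgeR, Benjamini-Hochberg adjusted p = 3.71e-05 for each). *Ect2*, the exchange factor that activates RhoA at the cleavage furrow, rose less, by 0.96 (SE 0.10).

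Condensin and topoisomerase genes rose, 6 of 6. *Top2a*, encoding topoisomerase II alpha, measured 157 and 144 FPKM in HDAC3-deficient BM pDCs, against 43.6 and 41.9 FPKM in control BM pDCs, and changed by 1.95 on the log2 scale (SE 0.09). The 3 non-SMC subunits of condensin I changed by 2.07 for *Ncapd2* (SE 0.11), 1.63 for *Ncapg* (SE 0.09) and 1.59 for *Ncaph* (SE 0.10). *Smc2* and *Smc4*, the ATPase subunits shared by condensin I and II, changed by 1.07 (SE 0.11) and 0.91 (SE 0.10).

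Further lists of cell cycle genes were read beside the 43, in BM pDCs where 21.6% of all genes tested rose and 22.5% fell. Of 78 other mitosis genes, 73 rose and 0 fell in HDAC3-deficient BM pDCs, with a median log2 change of 1.30. *Ccnf*, encoding cyclin F, measured 30.7 and 34.2 FPKM in HDAC3-deficient BM pDCs, against 7.40 and 6.70 FPKM in control BM pDCs. Of 44 DNA replication genes, 40 rose and 0 fell, with a median of 1.03. Counts were more mixed for the APC/C, cohesin and MuvB lists. Of 15 core APC/C genes 6 rose and 3 fell, with a median of 0.18, while their summed FPKM was lower, at 414 and 405 in HDAC3-deficient BM pDCs against 464 and 456 in control BM pDCs, as it was in LMPPs (867 and 924 in HDAC3-deficient, 963 and 933 in control libraries) and in CD115-CDPs (827 and 826 in HDAC3-deficient, 937 and 924 in control libraries). Single APC/C genes lay below both controls in both HDAC3-deficient libraries for 33.3% in BM pDCs, 33.3% in LMPPs and 26.7% in CD115-CDPs. The shares of all genes tested were 48.9%, 48.2% and 28.4%. Of 11 cohesin genes 3 rose and 0 fell, with a median of 0.22. Of 12 genes of the MuvB and DREAM complexes, which control cell cycle promoters, 6 rose and 1 fell, with a median of 0.42, and the largest rise was that of *Mybl2*, encoding B-MYB, at 1.72 (SE 0.14).

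**Figure D2:**
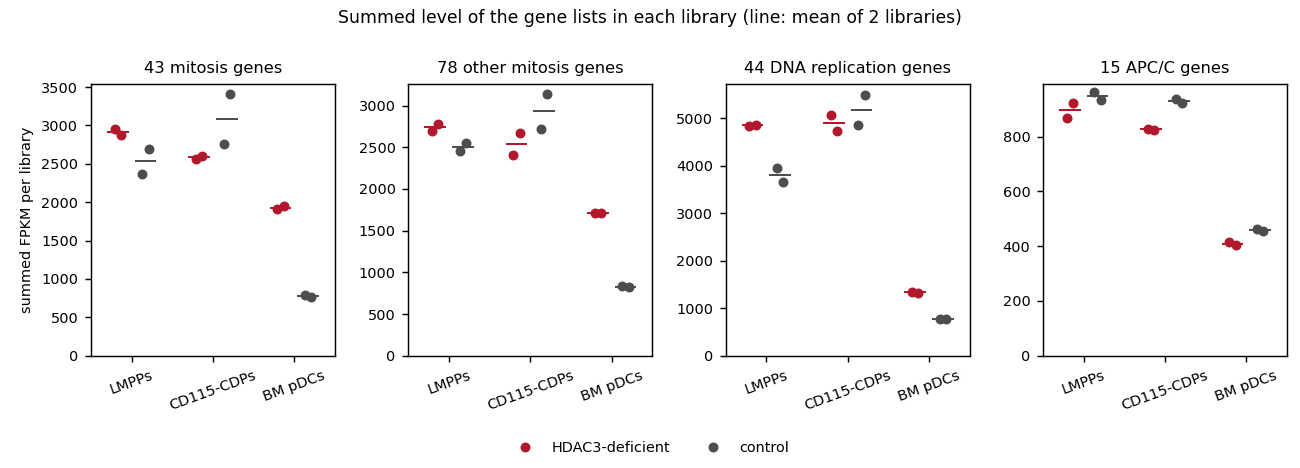
Summed FPKM of 4 gene lists (panels) in each library, with HDAC3-deficient and control libraries side by side for each cell type and lines for the mean of 2 libraries. The mitosis genes sum to 1911 and 1945 FPKM in HDAC3-deficient BM pDCs and to 787 and 762 FPKM in control BM pDCs, while APC/C sums are lower in both HDAC3-deficient libraries than in both controls in each of the 3 cell types. Of all genes tested, 48.2% in LMPPs, 28.4% in CD115-CDPs and 48.9% in BM pDCs are lower in this way.

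Markers of other cells moved in the same libraries, where 21.6% of all genes tested rose and 22.5% fell. Of 10 erythroid markers 4 rose and 0 fell, and they summed to 638 and 205 FPKM in HDAC3-deficient BM pDCs, against 197 and 286 FPKM in control BM pDCs, with none of the 10 listed at 0 in all libraries. The erythroid sum, weighted to the most abundant markers, was thus high in HDAC3-deficient BM pDC library 1 and within the range of the controls in library 2. Taken singly, all 10 erythroid markers had changes above 0, with a median log2 change of 1.36. In FPKM, 4 of the 10 lay above both controls in both HDAC3-deficient libraries (40.0%, against 27.2% of all genes tested). The mitosis genes summed to nearly equal levels in both HDAC3-deficient libraries. Without HDAC3-deficient library 1, 42 mitosis genes rose and 1 fell, where 26.5% and 27.4% of all genes did. Of 10 conventional dendritic cell markers 6 rose and 2 fell, summing to 1452 and 1699 FPKM in HDAC3-deficient BM pDCs against 1032 and 1010 FPKM in control BM pDCs. Of 10 granulocyte and monocyte progenitor markers 4 rose and 1 fell, with 7 changes above 0 and a median log2 change of 0.57. Their sum, weighted to the most abundant markers, was nonetheless lower, at 899 and 754 FPKM in HDAC3-deficient BM pDCs against 1513 and 1542 FPKM in control BM pDCs. In FPKM, 4 of these markers lay above both controls and 1 below, where 27.2% and 48.9% of all genes tested did. The list includes *Ly6c2*, which the paper counts among the pDC signature genes that were lower in HDAC3-deficient pDCs. The lower sum is therefore not a measure of myeloid progenitor transcripts alone. Of 5 LMPP markers 2 rose and 0 fell, summing to 439 and 473 FPKM in HDAC3-deficient BM pDCs against 381 and 416 FPKM in control BM pDCs. Of 6 CDP markers 3 rose and 0 fell, with sums that overlapped, at 279.6 and 299 FPKM in HDAC3-deficient BM pDCs against 297 and 267 FPKM in control BM pDCs. The LMPP and CDP lists share *Kit*, *Flt3* and *Cd34*, so that their counts are not separate. Of the 6 CDP markers, 4 lay above both controls in FPKM (66.7%, against 27.2% of all genes tested) and 2 below (33.3%, against 48.9%). *Kit*, a receptor of progenitors singled out after its values were seen, measured 8.52 and 9.77 FPKM in HDAC3-deficient BM pDCs, against 1.77 and 1.54 FPKM in control BM pDCs. Of the 8 B cell markers tested 0 rose and 4 fell, and of the 6 plasma cell markers tested 1 rose and 4 fell. The part of other cells in the level of the mitosis genes was not tested.

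Promoters of the genes were read because the genes moved together in BM pDCs. The promoters of many mitosis genes carry the cell cycle genes homology region (CHR), which the MuvB complex binds, together with CCAAT boxes, which NF-Y binds. RefSeq windows (GRCm38.p6) from 250 bases before to 50 bases after the gene start were at hand for 35 of the 43 genes, with 38 windows in all, and *Aurkb*, *Ccna2*, *Foxm1*, *Incenp*, *Kif20a*, *Smc4*, *Spc24* and *Tpx2* had none. The letters TTTGAA or TTCGAA were searched on both strands, where TTTGAA reads TTCAAA on the other strand, and CCAAT was searched likewise, reading ATTGG. The CHR letters and CCAAT may share a base where they meet. The 100 bases before the start are shown for 5 genes that rose and for *Pttg1*, the gene that fell, with matches to either motif on either strand in capitals. The *Cdk1* sequence is chr10:69352913-69353012 (minus strand), *Cdc20* chr4:118437344-118437443 (minus), *Ube2c* chr2:164769829-164769928 (plus), *Kif11* chr19:37376282-37376381 (plus), *Top2a* chr11:99024190-99024289 (minus) and *Pttg1* chr11:43425982-43426081 (minus), each written 5′ to 3′ on the strand of its gene.
Cdk1: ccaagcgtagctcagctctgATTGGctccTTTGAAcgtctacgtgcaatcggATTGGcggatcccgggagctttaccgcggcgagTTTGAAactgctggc
Cdc20: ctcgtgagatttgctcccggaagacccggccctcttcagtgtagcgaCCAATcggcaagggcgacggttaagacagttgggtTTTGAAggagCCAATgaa
Ube2c: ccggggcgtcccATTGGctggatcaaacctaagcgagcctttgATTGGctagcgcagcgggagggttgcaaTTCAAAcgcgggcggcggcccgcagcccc
Kif11: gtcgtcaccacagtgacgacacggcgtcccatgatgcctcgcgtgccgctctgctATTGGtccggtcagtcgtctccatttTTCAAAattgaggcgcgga
Top2a: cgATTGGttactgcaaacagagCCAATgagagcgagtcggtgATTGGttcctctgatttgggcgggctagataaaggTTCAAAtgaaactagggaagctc
Pttg1: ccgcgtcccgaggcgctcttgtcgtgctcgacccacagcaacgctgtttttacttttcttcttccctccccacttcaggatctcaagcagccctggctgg

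The CHR letters were in 30 of the 38 windows of mitosis genes (78.9%), against 19.2% of all 32851 promoter windows. CCAAT was in 29 (76.3%), against 37.4% of all windows, and both were in 27 (71.1%), against 7.52%. Windows of *Bub3*, *Ect2* and *Prc1* overlap, so that some matches were counted more than once. Counted by gene, 27 of the 35 genes had the CHR letters, 26 had CCAAT and 24 had both. The CHR letters lay mostly near the start, in 44.7% of the windows within the first 50 bases after it and in 26.3% within the 50 bases before it, where 2.46% and 2.97% of all windows had a match. CCAAT matches lay mostly in the 100 bases before the start. Windows of the other mitosis genes held the CHR letters in 60.8% and both motifs in 43.2%, and those of core APC/C genes in 11.8% and 0.0%. Neither motif was found in the windows of 6 genes, *Birc5*, *Mad2l1*, *Ncaph*, *Nuf2*, *Nusap1* and *Pttg1*, which says only that these letters are not in those windows. Of these 6 genes, 5 rose in HDAC3-deficient BM pDCs and *Pttg1* fell.

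**Figure D3:**
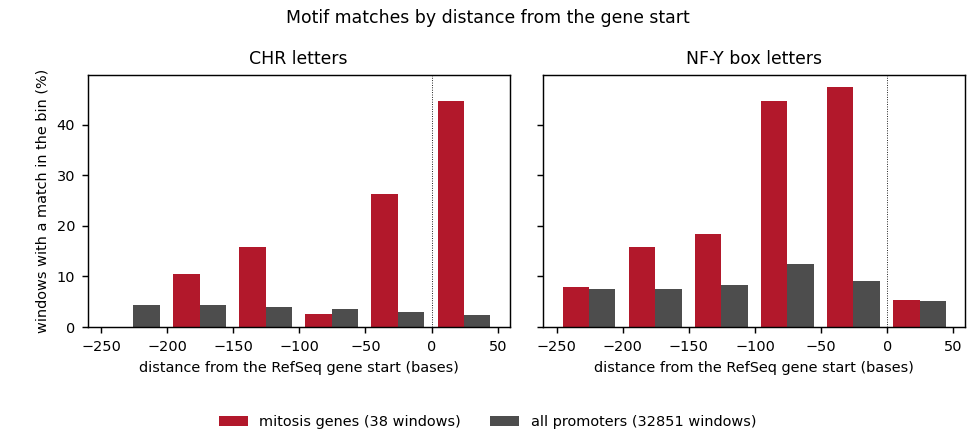
Share of promoter windows with a match to the CHR letters (left) or the NF-Y box (right) by distance of the match from the RefSeq gene start in bases, for 38 windows of mitosis genes and for all 32851 windows. CHR matches in mitosis genes are most frequent in the 50 bases after the start (44.7%) and NF-Y box matches in the 50 bases before it (47.4%).

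The next comparison asked whether the genes differed already in LMPPs. They changed little, with 6 of 43 rising and 1 falling (limma on log2(FPKM + 0.5), Benjamini-Hochberg adjusted p under 0.05 over 11146 genes), and 36 did not pass. Of all genes tested, 4.31% rose and 18.8% fell, or 480 and 2096 genes, a split that became 952 and 918 genes after median ratio scaling. The median log2 change over all genes was −0.23, so that the table as deposited was shifted down in HDAC3-deficient LMPPs, while the median of the 43 genes was 0.06, which is 0.29 above that shift. Both HDAC3-deficient libraries lay above both controls for 16 genes (37.2%, against 17.6% of all genes tested) and below them for 5 (11.6%, against 48.2%).

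The 6 genes that rose in LMPPs encode the kinases CDK1, PLK1, Aurora A and Aurora B, the passenger protein survivin and the midzone motor KIF20A. *Aurka* measured 110 and 112 FPKM in HDAC3-deficient LMPPs, against 52.0 and 62.7 FPKM in control LMPPs. It was about even within each genotype and apart between them, with a log2 change of 0.96 (SE 0.16; limma, Benjamini-Hochberg adjusted p = 0.00122), and it was the only one of the 43 genes called under all 12 alternative settings, with adjusted p values up to 0.0458. *Cdk1* measured 60.6 and 66.4 FPKM in HDAC3-deficient LMPPs, against 40.5 and 39.5 FPKM in control LMPPs, a change of 0.66 (SE 0.16), and was called under 9 of 12 alternatives. *Birc5* measured 240.2 and 265 FPKM in HDAC3-deficient LMPPs, against 151 and 176 FPKM in control LMPPs, a change of 0.63 (SE 0.17). These 3 genes did not overlap between genotypes.

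*Kif20a* measured 68.2 and 61.8 FPKM in HDAC3-deficient LMPPs, against 40.1 and 46.7 FPKM in control LMPPs, a change of 0.58 (SE 0.17). *Aurkb* measured 150.2 and 145 FPKM in HDAC3-deficient LMPPs, against 94.1 and 105 FPKM in control LMPPs, a change of 0.57 (SE 0.16). *Plk1* was just inside the threshold, at 68.0 and 74.2 FPKM in HDAC3-deficient LMPPs, against 45.0 and 56.4 FPKM in control LMPPs, with a change of 0.49 (SE 0.17; limma, Benjamini-Hochberg adjusted p = 0.0491). All 3 were higher in both HDAC3-deficient libraries than in either control, and they were called under 8, 7 and 4 of 12 alternatives.

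*Ccnb2* fell in LMPPs, where it measured 97.9 and 93.4 FPKM in HDAC3-deficient cells, against 123 and 153 FPKM in control cells. Both HDAC3-deficient libraries were below both controls, with a change of −0.51 (SE 0.17; limma, Benjamini-Hochberg adjusted p = 0.0392), and it was called under 6 of 12 alternatives but not after median ratio scaling. *Ccnb1*, encoding cyclin B1, measured 115 and 102 FPKM in HDAC3-deficient LMPPs, against 81.3 and 96.3 FPKM in control LMPPs, and did not pass. The 2 B-type cyclins therefore lay on opposite sides of their controls.

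Role groups other than mitotic entry, spindle kinases, the passenger complex and the midzone had 0 calls in LMPPs. Centromere and kinetochore genes had a median log2 change of −0.15 and spindle motor and microtubule genes one of −0.18 on the deposited FPKM, medians that turned to 0.13 and 0.10 after median ratio scaling. That of the midzone and cytokinesis genes, of which *Kif20a* alone was called, turned from −0.03 to 0.25. Spindle kinase genes (0.49) and passenger complex genes (0.48) kept their sign under median ratio scaling (0.78 and 0.77) and quantile normalization (0.52 and 0.45). *Kif11* measured 51.3 and 36.0 FPKM in HDAC3-deficient LMPPs, against 40.0 and 51.5 FPKM in control LMPPs, and *Kif23* measured 43.4 and 32.9 FPKM in HDAC3-deficient LMPPs, against 36.6 and 40.8 FPKM in control LMPPs. Both overlapped between genotypes, as did *Cenpa*, at 79.4 and 91.9 FPKM in HDAC3-deficient LMPPs and 87.2 and 110 FPKM in control LMPPs. Of the 44 DNA replication genes 13 rose and 0 fell in LMPPs, and of the 78 other mitosis genes 4 rose and 5 fell.

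With a single control LMPP library, taken to vary like the HDAC3-deficient ones, fewer genes were called. Without control library 1 or without control library 2, 1 of the 43 genes, *Aurka*, rose and 0 fell, where 2.41% and 1.35% of all genes rose and 9.25% and 6.65% fell. The log2 changes of the other 5 genes that had risen stayed positive in these fits, from 0.33 for *Plk1* to 0.74 for *Birc5*. Without HDAC3-deficient library 1 or HDAC3-deficient library 2, 7 genes rose in each fit, where 8.73% and 4.1% of all genes rose.

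Markers of other cells differed in LMPPs as well, where 4.31% of all genes tested rose and 18.8% fell. Of 10 granulocyte and monocyte progenitor markers 3 rose and 2 fell, summing to 4737 and 5655 FPKM in HDAC3-deficient LMPPs against 2425 and 2887 FPKM in control LMPPs. Of 5 LMPP markers 0 rose and 2 fell, summing to 1171 and 1138 FPKM in HDAC3-deficient LMPPs against 1609 and 1750.4 FPKM in control LMPPs. Erythroid markers summed to 259 and 309 FPKM in HDAC3-deficient LMPPs, against 6794 and 492 FPKM in control LMPPs, so that control library 1 stood apart. The part of these differences in the calls of the mitosis genes was not tested.

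In CD115-CDPs, the same comparison gave 0 of 43 genes rising and 0 falling (limma, Benjamini-Hochberg adjusted p under 0.05 over 10832 genes), and 0.0% of all genes rose and 0.0% fell. At an unadjusted p under 0.05 there were 3 of the 43 genes (6.98%), against 9.01% of all genes tested. The genes had a median log2 change of −0.24, against −0.16 over all genes, and 35 of 43 had a negative value. For 17 genes (39.5%, against 28.4% of all genes tested) both HDAC3-deficient libraries were lower than both controls, and for 2 genes (4.65%, against 15.2%) both were higher. Summed markers of cell types differed in the same libraries, and 0 of these markers passed the test. All 9 pDC markers were below both controls, summing to 1242 and 583 FPKM in HDAC3-deficient CD115-CDPs against 3234 and 2491 FPKM in control CD115-CDPs. The conventional dendritic cell markers summed to 815 and 758 FPKM in HDAC3-deficient CD115-CDPs against 3282 and 2188 FPKM in control CD115-CDPs. The granulocyte and monocyte progenitor markers were higher, at 3704 and 2517 FPKM in HDAC3-deficient CD115-CDPs against 1674 and 1712 FPKM in control CD115-CDPs. Their part in the level of the mitosis genes was not tested.

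The lowest p values belonged to genes of the kinetochore, centromere and midzone. *Spc24* measured 80.8 and 73.7 FPKM in HDAC3-deficient CD115-CDPs, against 148 and 177 FPKM in control CD115-CDPs. The genotypes did not overlap, and the difference of −1.06 on the log2 scale (SE 0.25; limma, Benjamini-Hochberg adjusted p = 0.397) did not pass. It passed without HDAC3-deficient library 1, without HDAC3-deficient library 2 and with a replicate block, over a range of adjusted p values of 6.89e-05 to 1.0 under the 12 alternatives. *Cenpa* measured 73.3 and 45.2 FPKM in HDAC3-deficient CD115-CDPs, against 106 and 108 FPKM in control CD115-CDPs, a difference of −0.89 (SE 0.32). *Kif23* measured 38.1 and 16.4 FPKM in HDAC3-deficient CD115-CDPs, against 57.9 and 54.0 FPKM in control CD115-CDPs, a difference of −1.15 (SE 0.44). Both were lower in both HDAC3-deficient libraries, which were far apart from each other.

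The spread between the HDAC3-deficient CD115-CDP libraries, as a ratio, was widest for *Ttk* and *Espl1*, genes of low level. It was narrow for *Kif4* and *Anln*, which were also low. *Ttk* measured 9.69 and 0.63 FPKM in HDAC3-deficient CD115-CDPs, against 14.3 and 18.4 FPKM in control CD115-CDPs, a difference of −2.30 (SE 1.03) that did not pass. *Espl1* measured 12.4 and 1.05 FPKM in HDAC3-deficient CD115-CDPs, against 9.68 and 12.2 FPKM in control CD115-CDPs, so that library 1 was above both controls and library 2 far below them. *Ube2c* measured 129 and 72.0 FPKM in HDAC3-deficient CD115-CDPs, against 156 and 191 FPKM in control CD115-CDPs, a difference of −0.84 (SE 0.35). *Ube2c* was lower in both HDAC3-deficient libraries, and the low values of *Ttk* and *Espl1* were in library 2.

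Among the other highly expressed genes, some overlapped between genotypes in CD115-CDPs and some did not. *Birc5*, the most abundant, was lower in both HDAC3-deficient libraries, at 195 and 176 FPKM in HDAC3-deficient CD115-CDPs and 207 and 230.1 FPKM in control CD115-CDPs. *Ccnb2* was lower as well, at 99.7 and 145 FPKM in HDAC3-deficient CD115-CDPs and 169 and 211 FPKM in control CD115-CDPs, as were *Mad2l1* and *Ccna2*, and none of these passed. Others overlapped. *Top2a* measured 150.2 and 239.9 FPKM in HDAC3-deficient CD115-CDPs, against 128 and 188 FPKM in control CD115-CDPs, and *Aurka* measured 80.3 and 49.9 FPKM in HDAC3-deficient CD115-CDPs, against 50.4 and 60.3 FPKM in control CD115-CDPs. *Kif20a* was 1 of the 2 genes above both controls, at 55.6 and 53.8 FPKM in HDAC3-deficient CD115-CDPs and 29.4 and 47.6 FPKM in control CD115-CDPs, and *Pttg1* was the other, at 36.2 and 44.1 FPKM in HDAC3-deficient CD115-CDPs and 33.1 and 35.0 FPKM in control CD115-CDPs. Without HDAC3-deficient library 1, 12 of the 43 genes fell and 1 rose, where 32.6% of all genes fell and 15.2% rose, so that the share of mitosis genes called was no higher than that of all genes. Without HDAC3-deficient library 2, 6 fell and 0 rose, where 8.46% of all genes fell and 5.66% rose. In both fits the lone HDAC3-deficient library was taken to vary like the controls. Passenger complex and condensin genes had medians of −0.11 and −0.07, which turned to 0.01 and 0.05 after median ratio scaling.

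**Figure D4:**
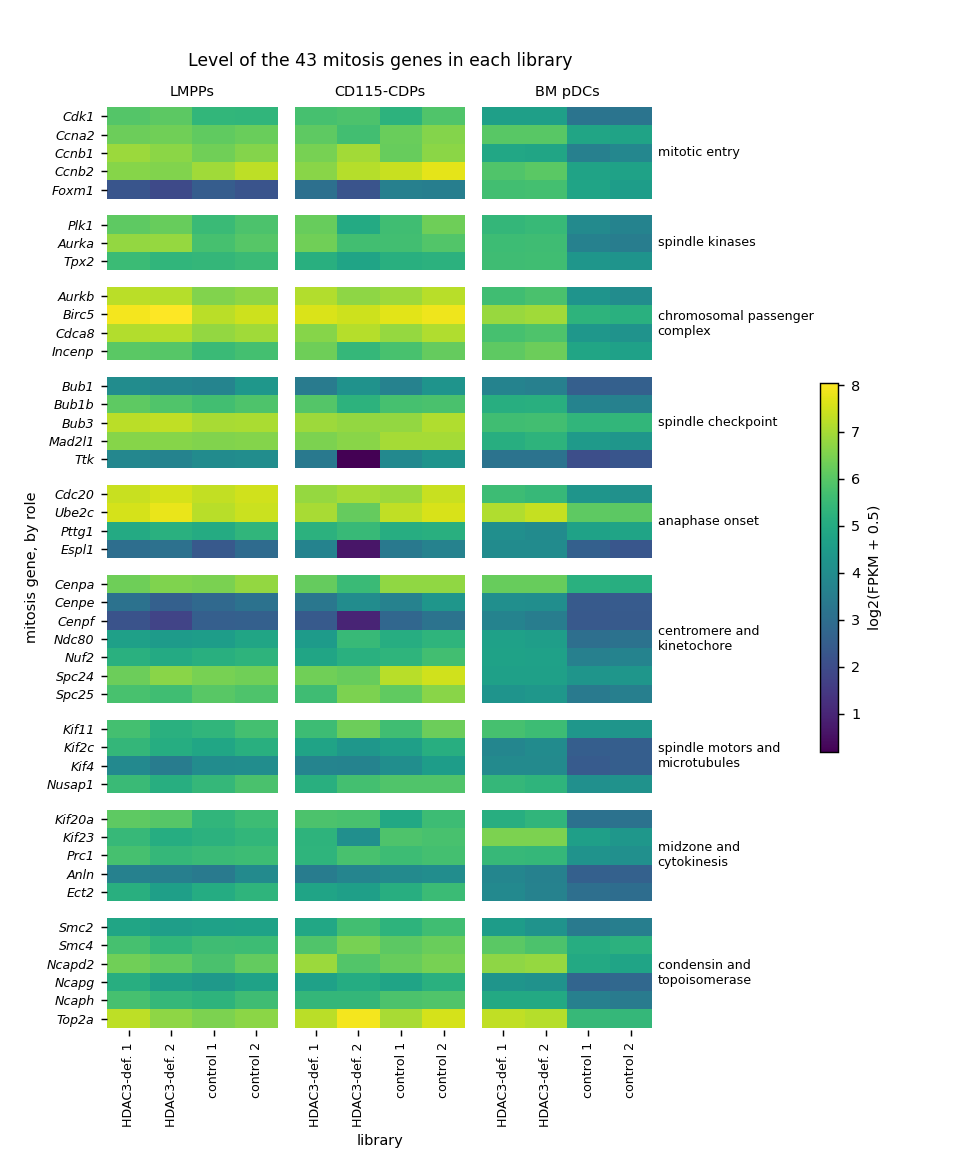
Level of the 43 mitosis genes (rows, by role group) in each of the 12 libraries (columns), as log2(FPKM + 0.5). In BM pDCs the HDAC3-deficient libraries are brighter than the controls in 42 rows, and HDAC3-deficient CD115-CDP library 2 is dark for *Ttk* (0.63 FPKM), *Espl1* (1.05 FPKM) and *Cenpf* (1.43 FPKM).

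Whether the change in BM pDCs differed from that in the progenitors was tested as a difference of log2 changes in 1 model over the 8 libraries of a pair of cell types. The change of 40 of the 43 genes was larger in BM pDCs than in LMPPs and that of 1, *Pttg1*, was smaller (limma interaction, Benjamini-Hochberg adjusted p under 0.05 over 11434 genes), where 17.9% and 10.3% of all genes differed in these directions. The median difference was 1.20, against 0.11 over all genes. *Kif23* had the largest difference, 2.06 (SE 0.21), with log2 changes of 2.03 in BM pDCs and −0.03 in LMPPs on the FPKM scale that these fits share. *Cdk1*, which rose in both cell types, still differed by 0.73 (SE 0.16), with 1.39 in BM pDCs and 0.66 in LMPPs. *Bub3* (0.09, SE 0.14) and *Spc24* (0.23, SE 0.19) did not pass, and *Pttg1* differed by −0.63 (SE 0.20; limma, Benjamini-Hochberg adjusted p = 0.0413), with values from −0.81 to −0.46 under the 13 alternatives, but did not pass when any 1 of 6 of the 8 libraries was left out.

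Against CD115-CDPs, the change in BM pDCs was larger for 11 of 43 genes and smaller for 0, with 1.28% and 0.168% of all 11287 genes differing in these directions. The 11 genes were *Ccna2*, *Ccnb2*, *Tpx2*, *Aurkb*, *Birc5*, *Mad2l1*, *Cenpa*, *Spc24*, *Kif4*, *Kif23* and *Ncaph*, and the median difference of the 43 genes was 1.60. *Birc5* had the smallest p of them, with a difference of 1.89 (SE 0.20; limma, Benjamini-Hochberg adjusted p = 0.0168). The count was 39 higher and 1 lower without HDAC3-deficient CD115-CDP library 1, where 32.5% and 22.4% of all genes were called. It was 41 and 1 without library 2, where 11.8% and 11.2% of all genes were called, and 0 higher when any other single library was left out, where 0.0% of all genes were called higher. Between CD115-CDPs and LMPPs, 0 of the 43 genes differed by limma, as did 0.0% of all 11516 genes in either direction, and 3 of the 43 had an unadjusted p under 0.05. Without HDAC3-deficient CD115-CDP library 1, the change of 14 genes was lower in CD115-CDPs than in LMPPs, as was that of 18.2% of all genes.

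**Figure D5:**
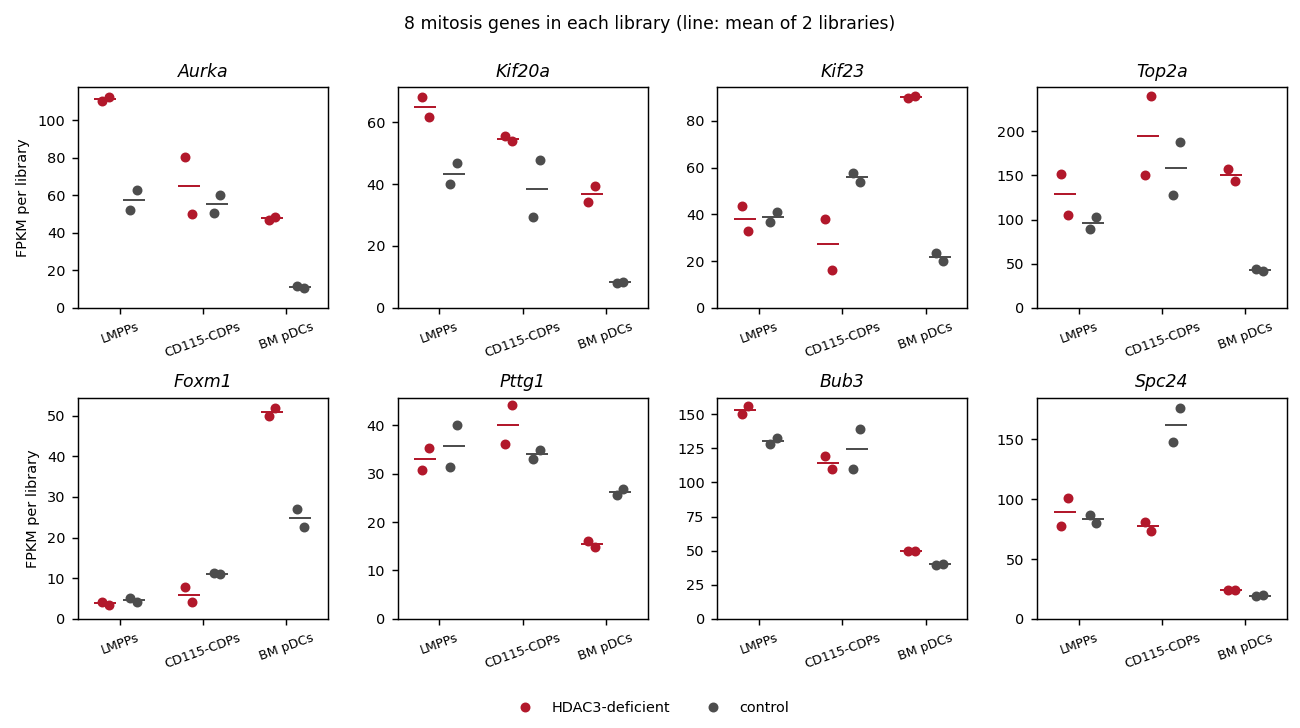
FPKM of 8 mitosis genes in each library of LMPPs, CD115-CDPs and BM pDCs, with HDAC3-deficient and control libraries side by side and lines for the mean of 2 libraries. *Pttg1* is the 1 gene lower in HDAC3-deficient BM pDCs (16.2 and 14.9 FPKM, against 25.6 and 26.9 FPKM in control BM pDCs), and *Foxm1* is highest in BM pDCs in both genotypes.

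Levels in control cells were then set side by side across the stages, as a description, since each table was normalized on its own and progenitors were lysed in a buffer for few cells while pDCs were lysed in Trizol. The genes summed to 2371 and 2694 FPKM in control LMPPs, 2757 and 3405 FPKM in control CD115-CDPs and 787 and 762 FPKM in control BM pDCs. The median gene measured 42.0 and 47.8 FPKM in control LMPPs, 50.4 and 59.0 FPKM in control CD115-CDPs and 16.5 and 15.3 FPKM in control BM pDCs. Both control BM pDC libraries lay below all 4 control progenitor libraries for 41 of the 43 genes, against 45.1% of 11560 genes that were in all 3 tables and reached 1 FPKM in 2 or more libraries. When FPKM were rescaled to TPM (shares of all transcripts, scaled to 1 fixed total) within each library, it was 39 genes, against 38.3%. The order of LMPPs and CD115-CDPs was less clear, with control CD115-CDPs above control LMPPs in both libraries for 25 genes and below for 1, *Tpx2*, and overlap for the rest, where 35.8% of the 11560 genes were above and 35.8% below. On the TPM scale the counts were 26 and 1, where 41.6% were above and 29.8% below.

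*Foxm1* ran the other way from the genes around it. It measured 5.08 and 4.17 FPKM in control LMPPs, 11.4 and 10.9 FPKM in control CD115-CDPs and 27.1 and 22.6 FPKM in control BM pDCs. It was the 1 gene whose control BM pDC libraries lay above all 4 control progenitor libraries, where 31.2% of the 11560 genes did (36.7% on the TPM scale), and it was singled out after its values were seen. Exons of *Foxm1* overlap those of *Tex52* on the same strand, so that reads of the 2 genes may not be separable. *Espl1* overlapped, at 4.58 and 6.97 FPKM in control LMPPs, 9.68 and 12.2 FPKM in control CD115-CDPs and 5.35 and 4.33 FPKM in control BM pDCs.

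In HDAC3-deficient BM pDCs the genes summed to 1911 and 1945 FPKM, above the control BM pDCs and below the control progenitors. On the TPM scale this order did not hold against LMPPs, with 4092 and 3957 TPM in HDAC3-deficient BM pDCs, 3807 and 4515 TPM in control LMPPs, 4829 and 6157 TPM in control CD115-CDPs and 1658 and 1581 TPM in control BM pDCs. Both HDAC3-deficient BM pDC libraries lay below all 4 control progenitor libraries for 26 genes, against 46.8% of the 11560 genes, or for 16 on the TPM scale, against 40.1%. They lay above all 4 in FPKM for 6 genes, against 28.2%, which were *Foxm1*, *Tpx2*, *Espl1*, *Cenpf*, *Kif23* and *Ncapd2*, and for 7 on the TPM scale, against 33.2%. *Kif23* reached 89.7 and 90.6 FPKM in HDAC3-deficient BM pDCs, against 36.6 to 57.9 FPKM in the control progenitors. *Bub3* and *Spc24* were among those that stayed below, at 49.7 and 50.1 FPKM in HDAC3-deficient BM pDCs against 110 to 139 FPKM in control progenitors for *Bub3*, and at 24.3 and 23.9 FPKM in HDAC3-deficient BM pDCs against 80.5 to 177 FPKM in control progenitors for *Spc24*.

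Some values are uncertain because genes share sequence. RefSeq lists pseudogene copies of *Ccnb1*, *Ccnb2* and *Kif4*. Exons of *Ccna2*, *Cdc20*, *Cdca8*, *Kif20a*, *Kif4*, *Ncapg*, *Nusap1*, *Plk1*, *Prc1* and *Ube2c* overlap those of another gene on the opposite strand, and whether reads were counted by strand is not stated. *Ncapd2* and *Top2a* overlap small RNA genes.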

How the data were processed

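Mouse LMPPs, CD115-CDPs and BM pDCs were profiled by RNA-seq, and groups were taken from the genotype labels. The LMPP and CD115-CDP tables held FPKM as deposited by the authors, 1 value per gene and library. The BM pDC table held expected counts (RSEM estimates), FPKM and TPM as deposited, beside the authors' group means, which were not used. Bowtie2, RSEM and mm10 are named by the submitters' processing notes, with version and settings not given in the sources used here. FPKM summed to 467172 to 707128 per library.

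BM pDC expected counts were rounded and tested with edgeR 4.0.16 (filterByExpr, TMM, glmQLFit, glmQLFTest). The SE given beside such a change is its size divided by the square root of F. FPKM of LMPPs and CD115-CDPs were tested as log2(FPKM + 0.5) with limma 3.58.1 (trend) in R 4.3.3, keeping a gene when 2 or more of the 4 libraries reached 1 FPKM. The added 0.5 shrinks the changes of low genes. Differences between cell types were tested as a limma interaction on log2(FPKM + 0.5), also for BM pDCs. All tests were two-sided, p values were adjusted by Benjamini-Hochberg over every gene tested, and rose, fell or called means an adjusted p under 0.05. Overlap between genotypes refers to FPKM. The main fits of LMPPs, CD115-CDPs, BM pDCs and BM pDCs minus LMPPs were tested on simulated data first, and the other fits were not. The simulated FPKM libraries all had the same spread, unlike the HDAC3-deficient CD115-CDP libraries. For the comparison of levels, TPM were computed from FPKM within each library, and the deposited TPM were not used.

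Genes with values in every library were the most abundant of each role group and the 5 with the smallest p in each cell type. *Foxm1*, *Pttg1*, *Plk1*, *Ccnb1*, *Espl1*, *Spc25* and *Kit* were added after their values were seen. The 43 genes, the role groups and all other lists were chosen with earlier results of these data known, and no list was tested as a set. Alternatives were DESeq2 1.42.0, other scalings, pseudocounts of 0.1 and 1, other filters, limma without trend, a replicate block and leaving out each library. Python 3.11.15 with pandas 2.3.3 read the tables, and matplotlib 3.10.9 drew the plots. Exon overlaps came from GENCODE M21 (GRCm38), the same build as mm10.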

Additional observations from a re-analysis of the deposited data

Results flagged for a closer look

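The following log2 changes differed between cell types by the limma interaction test on log2(FPKM + 0.5), with Benjamini-Hochberg correction over all genes, for the genes with values in every library and *Pttg1*. The change in BM pDCs exceeded that in LMPPs by 0.73 for *Cdk1*, 1.75 for *Ccnb2*, 1.08 for *Aurka*, 1.04 for *Aurkb*, 1.03 for *Birc5* and 1.25 for *Ttk*. It exceeded that in LMPPs by 0.79 for *Ube2c*, 1.26 for *Cenpa*, 1.80 for *Cenpe*, 1.42 for *Kif11*, 1.51 for *Kif20a*, 2.06 for *Kif23* and 1.40 for *Top2a*. *Pttg1* differed by −0.63, with log2 changes of −0.74 in BM pDCs and −0.11 in LMPPs. *Ccnb2* was called in opposite directions in the 2 cell types, with 1.24 in BM pDCs and −0.51 in LMPPs on this scale. The change in BM pDCs exceeded that in CD115-CDPs by 1.89 for *Ccnb2*, 1.73 for *Aurkb*, 1.89 for *Birc5*, 1.95 for *Cenpa*, 1.37 for *Spc24* and 3.18 for *Kif23*, where HDAC3-deficient CD115-CDP library 2 stood apart from library 1. Groups of 2 libraries were too small for a test of single libraries that lie far from the rest.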

How the results depend on the processing

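In BM pDCs, 42 of the 43 genes rose and 1 fell under DESeq2, RLE or upper quartile scaling, no filter, limma on FPKM and a replicate block, and 40 to 42 rose and 1 fell when each library was left out. In LMPPs, the main counts of 6 rising and 1 falling were 10 and 0 with median ratio scaling, 2 and 0 without trend, 1 and 0 with no filter, 5 and 0 with a replicate block, and 1 to 7 and 0 to 3 when each library was left out. In CD115-CDPs, the counts of 0 and 0 became 0 and 2 with a replicate block, and 0 to 1 and 0 to 12 when each library was left out. For BM pDCs minus LMPPs, 40 higher and 1 lower became 40 and 0 with a replicate block and 36 to 40 and 0 to 1 when each library was left out. For BM pDCs minus CD115-CDPs, 11 and 0 became 0 and 0 with a replicate block and 0 to 41 and 0 to 1 when each library was left out. For CD115-CDPs minus LMPPs, 0 lower became 0 to 14 when each library was left out. The summed level of HDAC3-deficient over control libraries was 2.49 in BM pDCs, 1.15 in LMPPs and 0.839 in CD115-CDPs, and 2.48, 1.06 and 0.838 on the TPM scale. On that scale 16 rather than 26 genes of HDAC3-deficient BM pDCs lay below all control progenitor libraries. Of single genes, 426 of 430 values in BM pDCs kept direction and call, 53 of 84 in LMPPs, 52 of 60 in CD115-CDPs, 509 of 533 for BM pDCs minus LMPPs and 62 of 143 for BM pDCs minus CD115-CDPs, and 0 called values turned direction. Over all genes, the 480 rises and 2096 falls in LMPPs were 227 rises without trend, 50 and 451 with no filter and 740 and 896 with quantile normalization, the 0 and 0 of CD115-CDPs were 102 and 291 with a replicate block, and the 144 and 19 of BM pDCs minus CD115-CDPs were 1 and 0 with it. The cause of these shifts was not tested. The replicate block matched libraries by number alone, and the labels do not say whether those with the same number were collected together. Deviations of libraries with the same number correlated at −0.10 in LMPPs, 0.24 in CD115-CDPs and −0.24 in BM pDCs. With 2 libraries per group these values cannot settle whether the libraries were paired. With 2 libraries per group and unknown depth in the progenitors, small changes may have been missed. In CD115-CDPs large changes may have been missed too, as that of *Hdac3* itself did not pass.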
